A study of Mus musculus with 8 samples.

Results

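The potassium channel family was followed through RNA-seq of the mouse ventral hippocampus after a single corticosterone injection. Its members were all protein-coding genes whose GENCODE M21 symbol begins with Kcn, which gave 94 of the 50686 gene identifiers counted, in 21 subfamilies. The symbols alone gave 99 genes, of which 5 were left out because they are not protein-coding. Of the 94 members, 90 had at least 1 read, 79 had enough reads to be tested among 16018 genes, and *Kcnj1*, *Kcnk16*, *Kcnk18* and *Kcnmb3* had 0 reads in every library. The remaining 11 members (*Kcna7*, *Kcna10*, *Kcne1*, *Kcne2*, *Kcne3*, *Kcnj15*, *Kcnk7*, *Kcnk15*, *Kcnn4*, *Kcnrg* and *Kcnv2*) had reads but were too low to test, with a highest normalized count of 16.3 in any library.

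The libraries came from 8 male C57B6/J mice, 8 weeks old, 1 mouse per library. The vehicle group (replicates 1 to 4) received the solvent alone and the corticosterone group (replicates 5 to 8) received 3 mg/kg of the hormone, and all were killed 3 h later. No transgene and no removal of the adrenal glands was described. The material was a dissected block of tissue that mixes neurons, glia and vessels, and in such bulk RNA a smaller number of cells of a type and less RNA per cell cannot be told apart. Reads assigned to genes totalled 17492159 to 19931987 per library. The check of the treatment was *Fkbp5*, a co-chaperone gene induced by glucocorticoid receptors, which was higher after corticosterone (log2FC 0.76, SE 0.097, edgeR adjusted p = 0.0481) and was the only gene with an adjusted p under 0.05 among all genes tested. Corticosterone replicate 5 stood apart from the other 3 libraries of its group in a way that followed GC content: across the tested members, Spearman's rho between GC content and its log2 difference from them was 0.649, given as a description. Results that rest on it are therefore given with and without it.

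Potassium channels let potassium leave the cell, which sets the resting potential, ends the action potential and spaces the spikes of a train. Voltage-gated pores open on depolarization, calcium- and sodium-activated pores open after ion entry, inward rectifiers and two-pore-domain channels carry current near rest, and silent subunits and auxiliary proteins alter the pores they join. In the hippocampus, corticosteroids are known to act on neuronal excitability, and the comparison here asks whether transcripts of this family differed between the groups at 3 h.

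All pore-forming members share a selectivity filter, the short loop that strips water from potassium and passes it over sodium. To show what the family has in common, the longest coding sequence of each gene was searched for codons of threonine or serine, any residue, glycine, then tyrosine, phenylalanine or leucine, then glycine. All 77 members of pore-forming and silent subfamilies held at least 1 such stretch, none of the 17 auxiliary members did, and 1172 of 21901 coding genes in the annotation (5.35%) held one. All 14 two-pore-domain members, whose subunits each carry a pair of pore loops, held 2 stretches, and *Kcna6* and *Kcnh2* also held 2. The stretch is given 5′ to 3′ for the most abundant member of several subfamilies, with the 5 filter codons in capitals.
Kcna2: atgacaACTGTAGGCTATGGAgacatg
Kcnh3: ctcaccAGTGTGGGCTTCGGCaacgtg
Kcnf1: atgaccACAGTGGGCTATGGTgacatc
Kcnma1: atgtctACAGTGGGTTATGGGgacgtt
Kcnt1: ttctcaACTGTGGGCTTCGGTgatgtg
Kcnj10: cagaccACCATCGGCTATGGCttccgc
Kcnk1 loop 1: ctctccACCACAGGCTATGGCcacacg
Kcnk1 loop 2: ctgagcACCATCGGCCTGGGGgactat
The fourth filter codon reads tyrosine in most of these, phenylalanine in *Kcnh3* and *Kcnt1*, and leucine in loop 2 of *Kcnk1*. On mm10 the stretches lie in coding exons at chr3:107105218-107105244 (*Kcna2*, plus strand), chr15:99232923-99232949 (*Kcnh3*, plus), chr12:17175055-17175081 (*Kcnf1*, minus), chr14:23528407-23528433 (*Kcnma1*, minus), chr2:25894361-25894387 (*Kcnt1*, plus), chr1:172369296-172369322 (*Kcnj10*, plus) and chr8:126025323-126025349 (*Kcnk1* loop 2, plus). Loop 1 of *Kcnk1* is split by an intron, from chr8:125995802 to chr8:126025025.

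Across the vehicle libraries the family's levels covered more than 3 orders of magnitude. Levels are given per length, as RPKM (reads per kilobase of merged exons, scaled to library size with TMM factors). In the vehicle group 27 members were above 10 RPKM, 60 were above 1 RPKM and 12 were under 0.1 RPKM. The 10 most abundant members held 51.9% of the summed RPKM of the family. When the longest transcript replaced merged exons as the length, 8 of these 10 remained among the 10 highest and the level of 9 members moved by more than 1.5 times, so the order of near neighbours is not firm. Altogether the family took 0.529% ± 0.0163 (SD, n = 4) of gene reads in the vehicle group and 0.508% ± 0.0235 (SD, n = 4) in the corticosterone group (exact permutation test, two-sided, p = 0.171).

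**Figure D1:**
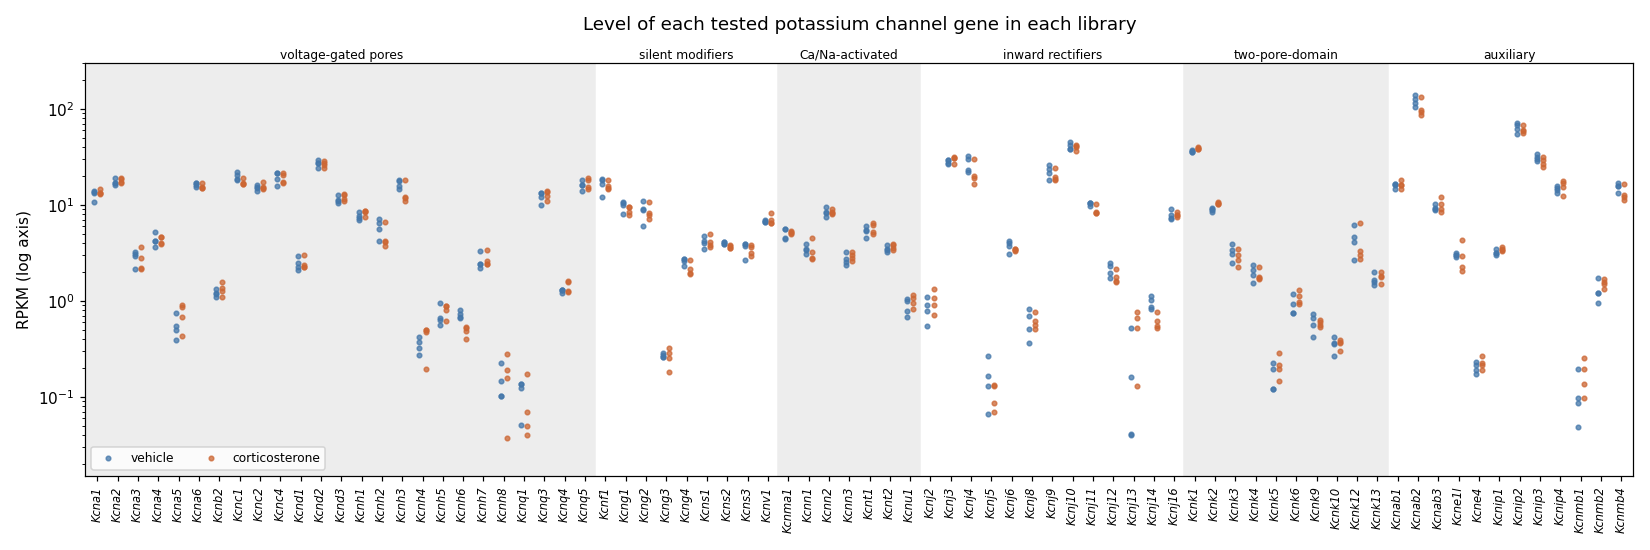
RPKM (log axis) of 76 of the 79 tested potassium channel genes in each of the 8 libraries, ordered by channel class and subfamily; blue points are vehicle and orange points corticosterone. Levels run from about 122 RPKM for Kcnab2 to 0.107 RPKM for Kcnmb1 in the vehicle group, and the groups overlap in all but 5 of the genes.

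Voltage-gated pores made up 35.0% of the summed level. *Kcnq3* and *Kcnq5*, subunits of the M-current that muscarinic receptors inhibit, stood at 12.2 ± 1.57 and 16.2 ± 1.76 RPKM (SD, n = 4). Of the fast Kv3 pores that serve brief spikes, *Kcnc1* had 19.9 ± 1.69 and *Kcnc2* 15.1 ± 0.924 RPKM. *Kcnd2*, the dendritic A-type pore, stood at 27.1 ± 1.91 RPKM, above *Kcnd3* at 11.4 ± 1.01. The axonal Kv1 pores *Kcna2* and *Kcna1* stood at 17.3 ± 1.44 and 12.9 ± 1.46 RPKM. Of the ether-a-go-go group, *Kcnh3* led with 16.6 ± 1.73 RPKM and *Kcnh7* had 2.59 ± 0.483 RPKM.

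Auxiliary subunits, only 17 genes, held 32.0% of the summed level. *Kcnab2*, a cytoplasmic beta subunit of Kv1 channels, was the most abundant member of the family at 122 ± 15.9 RPKM, although *Gm16334* overlaps it on the same strand. The Kv4-binding calcium sensors *Kcnip2* and *Kcnip3* followed with 64.4 ± 7.36 and 31.2 ± 2.34 RPKM. *Kcnmb4*, the neuronal beta subunit of the large-conductance calcium-activated channel, had 15.5 ± 1.48 RPKM, against 5.07 ± 0.704 RPKM for the pore it joins, *Kcnma1*. The Kcne subunits were low: *Kcne1l* had 3.03 ± 0.139 RPKM, and *Kcne2*, known from the choroid plexus, 0.116 ± 0.0581 RPKM. *Kcnrg*, a regulator with no pore, had 0.260 ± 0.136 RPKM.

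Inward rectifiers held 16.5% of the summed level. *Kcnj10*, the astrocytic Kir4.1 channel that clears potassium, led with 40.9 ± 3.24 RPKM, above its partner *Kcnj16* at 7.89 ± 0.891 RPKM. The subunits gated by G proteins, which carry slow inhibition, stood at 28.2 ± 1.5 RPKM for *Kcnj3*, 22.5 ± 3.31 for *Kcnj9* and 3.77 ± 0.499 for *Kcnj6*. *Kcnj11*, the pore of the neuronal ATP-sensitive channel, had 10.3 ± 0.344 RPKM, and its vascular counterpart *Kcnj8* 0.598 ± 0.204 RPKM. *Kcnj2*, a classical strong rectifier, had 0.834 ± 0.236 RPKM.

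The other classes were smaller. Two-pore-domain channels held 6.65% of the summed level, and *Kcnk1* alone, at 36.2 ± 1.0 RPKM, made 61.9% of its class. *Kcnk2*, the mechano- and lipid-sensitive TREK-1 channel, had 8.94 ± 0.336 RPKM, and *Kcnk13*, known from microglia, 1.68 ± 0.247 RPKM. Silent subunits, which form no channel alone, held 6.42%, and the most abundant members of their 4 subfamilies were *Kcnf1* (16.4 ± 3.06 RPKM), *Kcng1* (9.88 ± 1.26), *Kcnv1* (6.82 ± 0.138) and *Kcns1* (4.12 ± 0.542). The calcium- and sodium-activated pores held 3.35%, with *Kcnn2* at 8.42 ± 0.814 RPKM, *Kcnt1* at 5.34 ± 0.626, *Kcnn1* at 3.48 ± 0.340 and *Kcnn3* at 2.72 ± 0.378. *Kcnu1*, their relative known from sperm and counted in this class, had 0.878 ± 0.173 RPKM.

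No potassium channel gene passed the test between the groups. With all 8 libraries, 0 of 79 members had an edgeR adjusted p under 0.05, against 0.00624% of all genes tested, and the smallest adjusted p of a member was 0.439. At an unadjusted edgeR p under 0.05 there were 7 members (8.86%), against 9.03% of all genes tested, so the family's share was near the background. Of these, 1 was higher after corticosterone (1.27%, background 4.51%) and 6 were lower (7.59%, background 4.52%). This split was not kept when a trend on GC content and length was taken out of each library: 11 members (13.9%) then had an unadjusted edgeR p under 0.05, against 9.79% of all genes, with 6 higher and 5 lower. DESeq2 also called 0 members, with 7 at an unadjusted p under 0.05. These were 7.78% of the 90 members with reads, against 5.39% of all genes with reads, and 8.64% of the 81 members that passed its own filter on low counts, against 8.30% of all genes that did. The members divided evenly, with 40 higher and 39 lower, a median log2FC of 0.00 for members as for all genes, and a median absolute log2FC of 0.11 against 0.12. In 56 members the absolute log2FC was under 0.2.

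**Figure D2:**
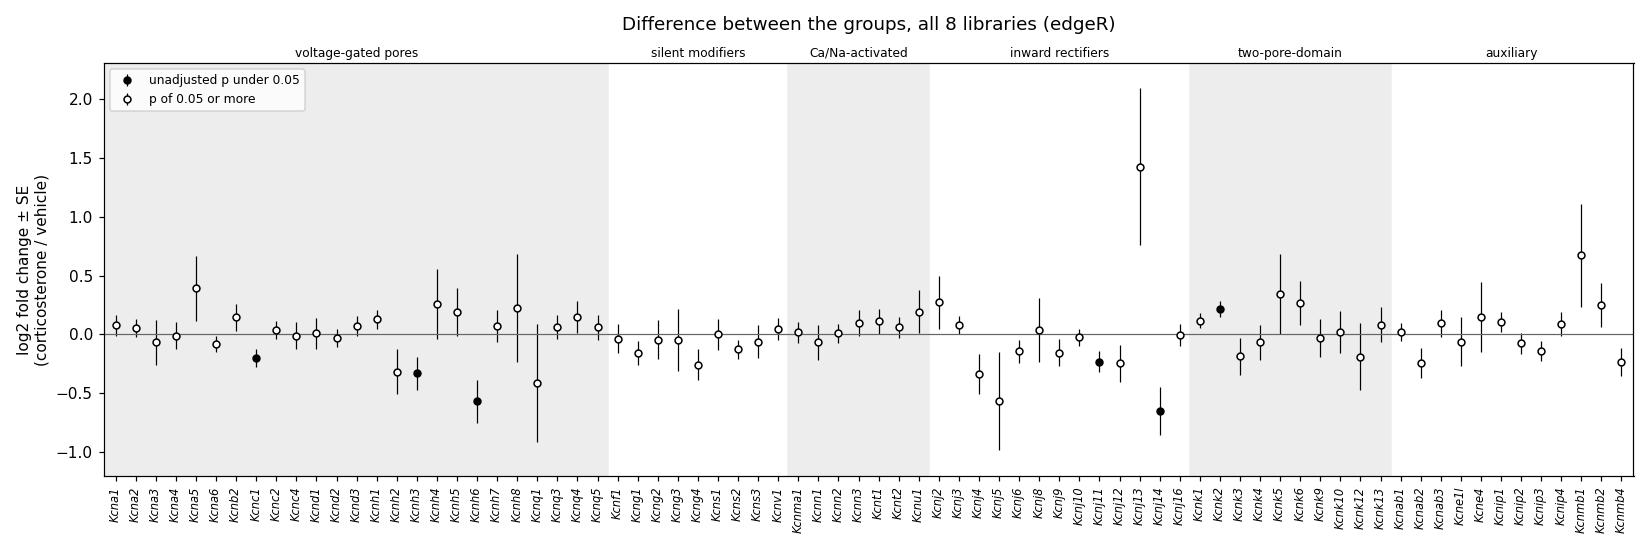
Log2 fold change of corticosterone over vehicle with its standard error (edgeR, all 8 libraries) for 76 of the 79 tested genes by channel class; filled points have an unadjusted p under 0.05. The filled points are 1 above zero (Kcnk2) and 5 below it, and the widest error bars belong to genes of few reads such as Kcnj13.

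By class, the summed levels of the groups differed by less than the test could call. Inward rectifiers summed to 145 ± 4.57 RPKM in the vehicle and 136 ± 5.39 in the corticosterone group (SD, n = 4 each; exact permutation p = 0.0571). Two-pore-domain channels went the other way, with 58.5 ± 2.15 and 62.3 ± 3.37 RPKM (exact permutation p = 0.0857). Voltage-gated pores summed to 308 ± 13.6 and 295 ± 9.17 RPKM (exact permutation p = 0.257), and auxiliary subunits to 281 ± 21.3 and 256 ± 28.7 RPKM (exact permutation p = 0.2). For silent subunits the sums were 56.5 ± 5.04 and 54.1 ± 4.91 RPKM (exact permutation p = 0.6), and for calcium- and sodium-activated pores 29.4 ± 1.99 and 30.3 ± 1.30 RPKM (exact permutation p = 0.4). Without corticosterone replicate 5 the sums of that group were 134 ± 1.80 RPKM for inward rectifiers, 60.7 ± 1.15 for two-pore-domain channels, 291 ± 3.91 for voltage-gated pores, 242 ± 7.62 for auxiliary subunits, 51.9 ± 2.90 for silent subunits and 29.7 ± 0.326 for calcium- and sodium-activated pores (SD, n = 3), with an exact permutation p of 0.0571 for inward rectifiers and auxiliary subunits and of 0.0857 or more for the others. These are unadjusted values of 6 comparisons, and the smallest p that 4 against 4 libraries can give is 0.0286.

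**Figure D3:**
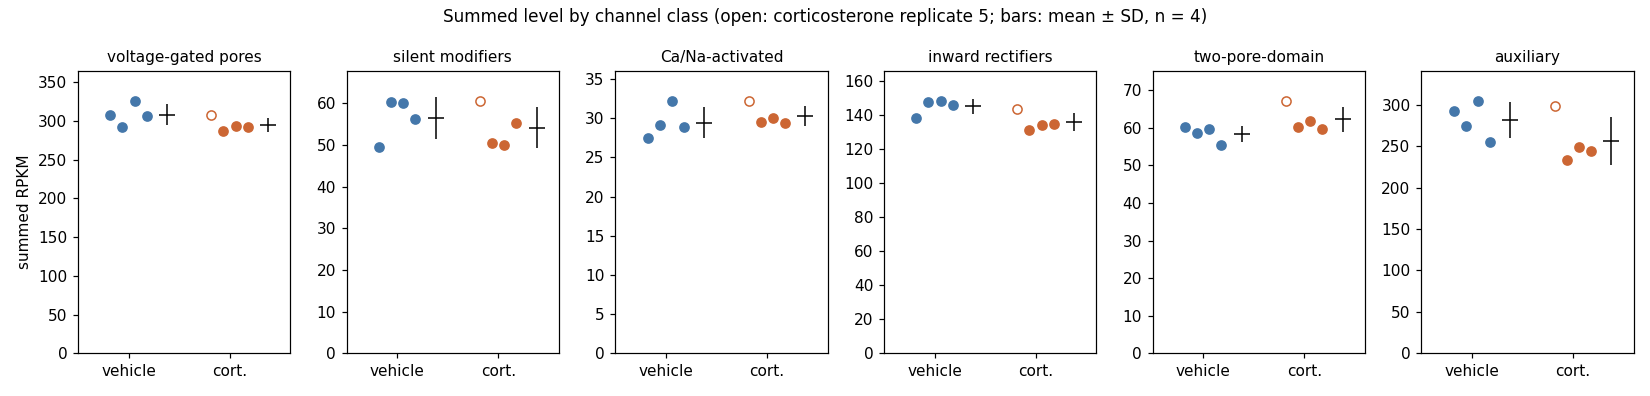
Summed RPKM of each channel class in each library (points), with mean and SD of 4 libraries beside them; open points are corticosterone replicate 5. In every class at least 1 corticosterone library lies within the range of the vehicle libraries.

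The two-pore-domain class held the 1 member that was higher at an unadjusted p under 0.05. *Kcnk2* (chr1:189207930-189402273, minus strand) had normalized counts of 879, 803, 845 and 857 in the vehicle libraries and 1005, 963, 1009 and 959 in the corticosterone libraries. All 4 corticosterone values lay above all 4 vehicle values. Its log2FC was 0.22 (SE 0.067; edgeR unadjusted p = 0.00625, adjusted p = 0.439; exact permutation p = 0.0286, the smallest possible). *Kcnk1* (chr8:125995170-126030685, plus strand) had 1610, 1548, 1519 and 1518 in the vehicle and 1724, 1661, 1672 and 1661 in the corticosterone libraries. These groups did not overlap either, at a log2FC of 0.12 (SE 0.061; edgeR unadjusted p = 0.0759, adjusted p = 0.546; exact permutation p = 0.0286). Both genes, and *Kcnh3* and *Kcnmb4* described later, have exons that another gene overlaps on the opposite strand. In the class as a whole 6 of 10 tested members were higher and 4 lower.

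Of the inward rectifiers 9 of 13 tested members were lower and 4 higher, with a median log2FC of -0.14. *Kcnj14*, the Kir2.4 subunit (chr7:45816460-45824782, minus strand), had 58.9, 53.9, 43.0 and 45.4 normalized counts in the vehicle and 32.2, 27.1, 28.4 and 39.9 in the corticosterone libraries. The groups did not overlap, although at these low counts (log2FC -0.65, SE 0.20; edgeR unadjusted p = 0.00670, adjusted p = 0.443; exact permutation p = 0.0286). *Kcnj11* (chr7:46093953-46100764, minus strand) had 686, 734, 737 and 734 in the vehicle and 718, 577, 575 and 589 in the corticosterone libraries. Replicate 5 lay inside the vehicle range and the other 3 corticosterone libraries below it (log2FC -0.23, SE 0.088; edgeR unadjusted p = 0.0205, adjusted p = 0.510; exact permutation p = 0.0571). The main glial member *Kcnj10* had a log2FC of -0.03 (SE 0.076; edgeR adjusted p = 0.910), and *Kcnj3* one of 0.08 (SE 0.073; edgeR adjusted p = 0.678).

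*Kcnj13*, the Kir7.1 channel of transporting epithelia such as the choroid plexus, had the widest log2FC of the 79 tested members, on few reads. Its normalized counts were 3.93, 12.7, 0.978 and 0.987 in the vehicle and 18.5, 16.3, 3.15 and 12.7 in the corticosterone libraries, and the groups overlapped (log2FC 1.42, SE 0.66; edgeR unadjusted p = 0.0521, adjusted p = 0.545). Its log2FC lay between 1.09 and 2.62 when each library was left out, the highest without vehicle replicate 2. Of 6 choroid plexus markers 4 were tested, of which 3 were higher and 1 lower. *Clic6* (log2FC 1.16, SE 0.36; edgeR unadjusted p = 0.00705, adjusted p = 0.443) and *Otx2* (log2FC 1.04, SE 0.46; edgeR unadjusted p = 0.0408, adjusted p = 0.545) had the smallest p of these. *Folr1* had no reads in vehicle replicate 4. Their summed normalized counts ranged from 417 to 1316 in the vehicle and from 621 to 1370 in the corticosterone libraries, with the highest sums in replicates 1 and 5. The part of choroid plexus tissue in this difference was not tested, and *Kcnj13* shares exonic positions with *Gigyf2* on the opposite strand.

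Among voltage-gated pores 15 of 28 tested members were higher and 13 lower, and 4 of the lower ones had an unadjusted p under 0.05. *Kcnh6*, the Erg2 pore (chr11:106008124-106034549, plus strand), had 50.1, 45.1, 54.8 and 46.4 normalized counts in the vehicle and 33.1, 35.8, 27.3 and 36.1 in the corticosterone libraries. The groups did not overlap (log2FC -0.57, SE 0.18; edgeR unadjusted p = 0.00866, adjusted p = 0.465; exact permutation p = 0.0286). *Kcnc1* (chr7:46396497-46438704, plus strand) had 3688, 3392, 3998 and 3330 in the vehicle and 3475, 2994, 3087 and 2987 in the corticosterone libraries, with replicate 5 inside the vehicle range (log2FC -0.20, SE 0.079; edgeR unadjusted p = 0.0252, adjusted p = 0.529). *Kcnh3*, the Elk2 pore of forebrain neurons (chr15:99224861-99242817, plus strand), had 1729, 1979, 2011 and 1620 against 1995, 1203, 1343 and 1293 (log2FC -0.33, SE 0.14; edgeR unadjusted p = 0.0338, adjusted p = 0.545). In *Kcnh3* only replicate 5 of the corticosterone group reached the vehicle range.

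The M-current and A-type genes named here differed little. Over all 5 Kcnq members the log2FC ran from -0.41 to 0.15, with 3 higher and 2 lower. *Kcnq3* and *Kcnq5* each had a log2FC of 0.06 (SE 0.10), with edgeR adjusted p of 0.820 and 0.835. *Kcnd2* and *Kcnd3* had log2FC of -0.03 (SE 0.076) and 0.07 (SE 0.082). For *Kcna1* and *Kcna2* the values were 0.08 and 0.05. A p above the threshold does not show these levels to be equal.

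Silent, calcium-activated and auxiliary members gave no unadjusted edgeR p under 0.05. *Kcns2*, a silent subunit (chr15:34837355-34843407, plus strand), had 419, 416, 442 and 438 in the vehicle and 412, 379, 404 and 380 in the corticosterone libraries, without overlap (log2FC -0.12, SE 0.080; edgeR unadjusted p = 0.147; exact permutation p = 0.0286). With it, 5 of 79 members (6.33%) had groups that did not overlap, against 3.66% of all genes tested: *Kcnk2* and *Kcnk1* higher, and *Kcnj14*, *Kcnh6* and *Kcns2* lower. All 7 tested members grouped as calcium- or sodium-activated lay between -0.07 and 0.19 on the log2 scale, with 6 higher and 1 lower. The upper end was *Kcnu1*, a relative counted in this class, and the next highest was *Kcnt1* at 0.11. For *Kcnma1* the value was 0.02 (SE 0.091). Without replicate 5 the range was -0.25 (*Kcnn1*) to 0.27 (*Kcnu1*), with 5 higher and 2 lower.

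**Figure D4:**
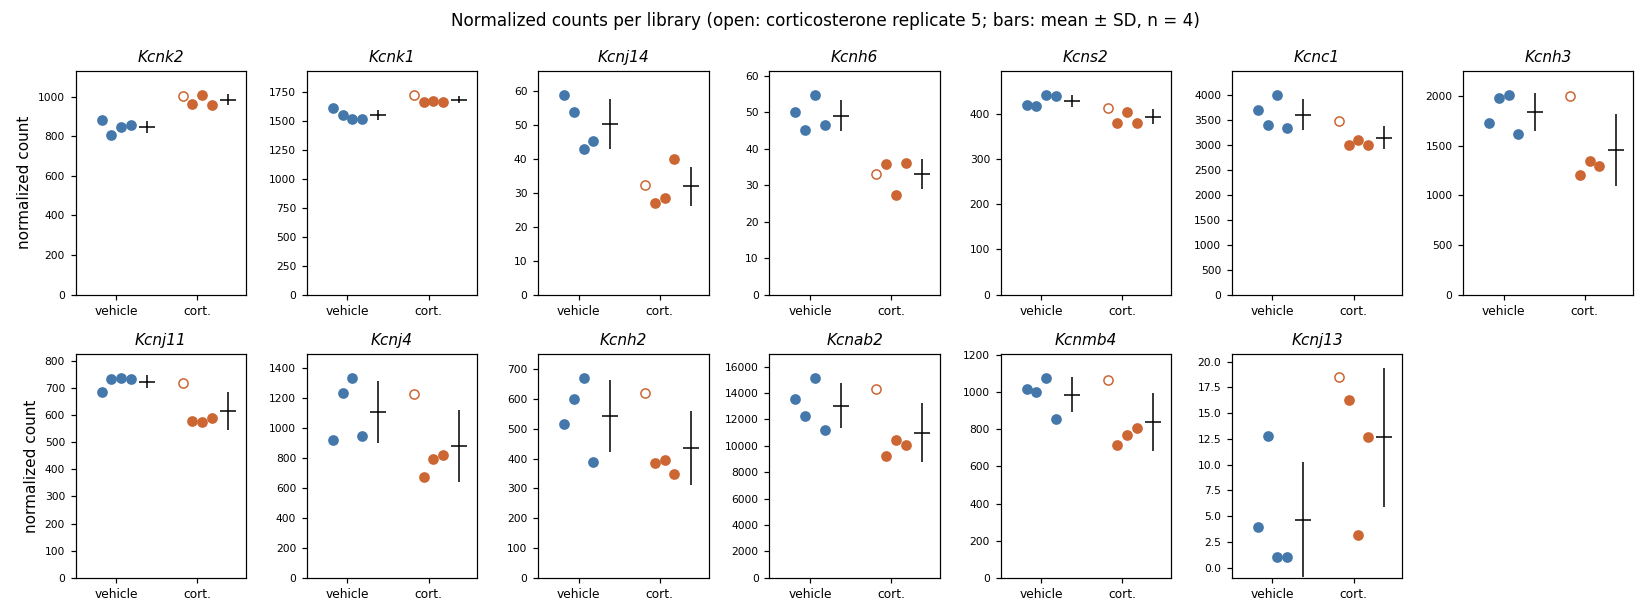
Normalized counts of 13 potassium channel genes in each library, with axes that include zero and mean ± SD (n = 4) beside the points; open points are corticosterone replicate 5. Kcnk2 and Kcnk1 are higher and Kcnj14, Kcnh6 and Kcns2 lower in all corticosterone libraries, while in Kcnh3, Kcnj4, Kcnab2 and Kcnmb4 replicate 5 sits among the vehicle values.

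Among the fits that each left out a library, only the one without corticosterone replicate 5 called any member. Replicate 5 lay above the other 3 corticosterone libraries in 41 of the tested members and below them in 21. Without it, 7 of 80 members (8.75%) had an edgeR adjusted p under 0.05, against 10.2% of all genes tested, and all 7 were lower, against 6.47% of all genes called lower. They were *Kcnh3* (log2FC -0.52, edgeR adjusted p = 0.0108), *Kcnj11* (-0.32, 0.0218), *Kcnab2* (-0.40, 0.0218), *Kcnj4* (-0.54, 0.0219), *Kcnmb4* (-0.37, 0.0221), *Kcnh2* (-0.54, 0.0367) and *Kcnc1* (-0.25, 0.0395). *Kcnj4*, a strong inward rectifier of forebrain neurons, had 919, 1232, 1334 and 946 in the vehicle and 1230 in replicate 5, against 675, 790 and 821 in the others. *Kcnab2* had 13532, 12238, 15131 and 11202 in the vehicle and 14282 in replicate 5, against 9208, 10438 and 10041. *Kcnmb4* had 1016, 1000, 1077 and 855 in the vehicle and 1064 in replicate 5, against 714, 768 and 808. *Kcnh2*, the Erg1 pore, had 516, 599, 670 and 387 in the vehicle and 620 in replicate 5, against 384, 394 and 347. In each of these 4 genes replicate 5 lay in the vehicle range. *Kcnk2* had a log2FC of 0.21 without replicate 5 (edgeR adjusted p = 0.0600).

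The 6 members that were lower at an unadjusted p under 0.05 with all 8 libraries were rich in G and C. This does not hold for every lower member named: *Kcnmb4* and *Kcns2* stood at 44.3% and 48.2% GC. GC content here is that of the longest transcript, with a median of 52.2% in members and 49.7% in all genes tested. The 28 tested members at 55% GC or above had a median log2FC of -0.17, with 6 lower (21.4%) and 0 higher at an unadjusted edgeR p under 0.05. Among all genes in that range 11.9% were lower and 1.24% higher at the same p. The 51 members below 55% had a median of 0.05, with 0 lower and 1 higher, against 2.41% and 5.44% of all genes below 55%. All genes tested had medians of the same signs: 3546 genes at 55% or above had a median log2FC of -0.14, and 12437 below it 0.04. Without replicate 5 the medians were -0.25 and 0.08 for members and -0.23 and 0.06 for all genes. Across the 79 members Spearman's rho between GC content and log2FC was -0.488, as a description of genes that share the same libraries. With the trend on GC content and length taken out of each library, the medians of the GC-rich and other members became -0.03 and -0.02 and rho became 0.077. The removal is built to flatten this dependence over all genes, so these values are no test of it. In that fit the log2FC of *Kcnh3* was -0.15, of *Kcnj11* -0.12 and of *Kcnc1* -0.09, each less than in the fit without the trend by over 1.5 times, while *Kcnk2* had 0.23, *Kcnj14* -0.55 and *Kcnh6* -0.44. With the trend removed and replicate 5 left out, 1 of 80 members was called (1.25%, background 1.24%), *Kcnmb4*. Whether the dependence on GC content lies in the tissue or in library preparation was not tested.

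**Figure D5:**
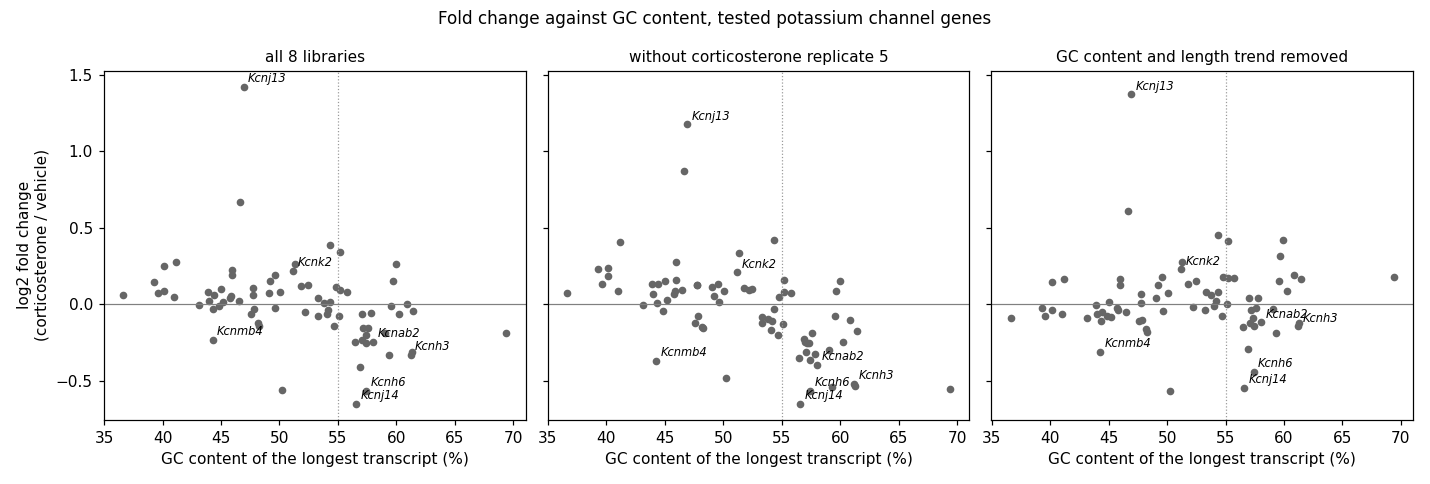
Log2 fold change against the GC content (%) of the longest transcript for 76 of the 79 tested potassium channel genes, in all 8 libraries, without corticosterone replicate 5, and with the trend on GC content and length removed; each point is a gene and the dotted line marks 55%. Points right of the line lie mostly below zero in the left and middle panels. In the right panel they are spread around zero, which removing the trend is built to give.

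Genes that work with the channels gave no call either. Of 33 partner genes (auxiliary, anchoring and related proteins outside the Kcn symbols) 31 were tested, 17 higher and 14 lower, and 0 had an edgeR adjusted p under 0.05. *Dlg4*, the PSD-95 scaffold, was the only one with an unadjusted edgeR p under 0.05 (log2FC -0.25, SE 0.084, unadjusted p = 0.00998, adjusted p = 0.476), which is 3.23% of the tested partners against 9.03% of all genes. Without replicate 5 *Dlg4* and *Hcn2* were called, 6.45% of the partners against 10.2% of all genes. Of 10 pump and cotransporter genes that restore potassium gradients, 5 were higher and 5 lower, and 0 had an unadjusted edgeR p under 0.05.

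Markers of cell types were measured beside the channels. The summed normalized counts of 5 microglial markers, all lower, ranged from 4391 to 4621 in the vehicle and from 3097 to 4222 in the corticosterone libraries, without overlap. The 4 endothelial markers, all lower, ranged from 1752 to 1846 and from 1449 to 1647. The 5 oligodendrocyte markers, all lower, ranged from 52207 to 90936 and from 49939 to 63053, and the sums of 5 excitatory neuron markers (115966 to 146263 and 110893 to 129029) and 5 astrocyte markers (25745 to 28262 and 24975 to 26966) overlapped. The sums of 5 mural cell markers (2746 to 3344 and 2941 to 3253) and 6 inhibitory neuron markers (17565 to 19756 and 17431 to 19414) also overlapped, as did those of 3 oligodendrocyte precursor markers (1913 to 2274 and 1830 to 1997). All 3 precursor markers had an unadjusted edgeR p under 0.05, *Pdgfra* higher (log2FC 0.20, SE 0.071) and *Cspg4* (log2FC -0.37, SE 0.15) and *Olig2* (log2FC -0.41, SE 0.16) lower, with adjusted p of 0.499 to 0.530. None of these markers was at 0 in any library. Their part in the channel values was not tested. *Kcnk13* and *Kcnj8*, known from microglia and mural cells, had log2FC of 0.08 (SE 0.15) and 0.04 (SE 0.27), with edgeR adjusted p of 0.842 and 0.965.

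Promoters were read because corticosterone acts through receptors that bind DNA. RefSeq promoter windows (250 bases before the start to 50 after it, GRCm38.p6) were found for 69 members, 94 windows in all. None held AGAACA and TGTTCT separated by 3 bases, an exact full form of the glucocorticoid response element, which 3 of 32851 windows held. Its 6-base arm, AGAACA or the reverse complement TGTTCT on either strand, stood in 16 member windows (17.0%) and in 19.0% of all windows. The 250 bases before the start are shown for *Kcnk2*, the higher member (chr1:189402274-189402523, minus strand), and *Kcnh6*, a lower one (chr11:106007898-106008147, plus strand), with the arm in capitals. *Kcnk2* has 4 RefSeq starts, and the one nearest the start of the GENCODE gene was taken.
Kcnk2: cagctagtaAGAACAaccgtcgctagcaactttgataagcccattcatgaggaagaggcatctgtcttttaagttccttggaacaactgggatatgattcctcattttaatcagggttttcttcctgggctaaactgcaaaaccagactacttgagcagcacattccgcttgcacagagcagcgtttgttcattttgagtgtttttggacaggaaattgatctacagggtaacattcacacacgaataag
Kcnh6: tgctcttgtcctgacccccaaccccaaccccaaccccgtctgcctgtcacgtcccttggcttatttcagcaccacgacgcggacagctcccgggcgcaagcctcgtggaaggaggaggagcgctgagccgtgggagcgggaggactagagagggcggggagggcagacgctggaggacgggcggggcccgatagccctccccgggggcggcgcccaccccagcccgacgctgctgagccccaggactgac
The stretch of *Kcnk2* held 1 such arm and 5 CG dinucleotides at 42.4% GC, the same stretch at its other 3 starts held 0 arms and 2 to 28 CG dinucleotides at 53.2 to 74.4% GC, and that of *Kcnh6* 0 arms and 21 CG dinucleotides at 70.8% GC. A match of these letters is not a binding site, and the share in members was near that of all windows. The absence of a match does not show that a gene lacks a receptor site. Only exact letters in short windows were searched, and the paper states that sites of the glucocorticoid receptor often lie further from gene starts.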

How the data were processed

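Stranded mRNA libraries were sequenced as 100-bp paired ends on DNBseq, and the authors aligned reads to mm10 with GSnap and counted them per gene with HTSeq; quality was inspected with FastQC and MultiQC, per the labels. The annotation release and strand setting of the counting were not given in the sources used here. The deposited values are raw counts per gene. Rows naming no gene took 13.7 to 15.4% of reads and were left out. Among these, reads not aligned made 6.35 to 7.13% in the vehicle group. They made 6.45% in corticosterone replicate 5 and 7.77 to 8.09% in replicates 6 to 8. Alignments that were not unique made 0.0699 to 0.111% in the vehicle and 0.0420 to 0.0536% in the corticosterone group. The part of these differences in the channel values was not tested. Of the identifiers, 50462 matched GENCODE M21, which supplied symbols, types and lengths. The main test was edgeR 4.0.16 (R 4.3.3; TMM, filterByExpr, quasi-likelihood F test, Benjamini-Hochberg adjustment over 16018 genes, threshold 0.05). It was tried on simulated counts with the same spread for every gene, no trend on GC content and no outlying library. That check does not cover these features of the data. Exact two-sided permutation tests (log2 CPM with a prior count of 2 for single genes, summed RPKM for classes, percent of reads for the family) used all 70 assignments, or 35 without replicate 5. Normalized counts were scaled to the mean effective library size.

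Named genes were the most abundant member of each subfamily, members with an unadjusted p under 0.05 or groups without overlap, and a list of members with known roles; *Kcnj4* and *Kcnh2* were added after their values were seen. Some members enter the counts and sums but are not reported here by name. The members and all lists were chosen with earlier results of these data known. Alternatives were DESeq2 1.42.0, its size factors, upper-quartile scaling, other filters, limma-voom 3.58.1 and leaving out each library, and, chosen after seeing the data, a trend on GC content and length removed by splines (5 df). Of the members, 26 overlap exons of a gene on the opposite strand and 2 (*Kcnab2*, *Kcnk4*) one on the same strand, where reads may be split or lost.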

Additional observations from a re-analysis of the deposited data

Results flagged for a closer look

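In 90 sets of 4 values (45 tested genes named in the text, each in both groups) a library lay apart from the other 3 by Dixon's criterion in 2, where chance gives about 4.5. Both were *Kcnj11*, the pore of the ATP-sensitive channel. In the vehicle group replicate 1 had a normalized count of 686 against 734 to 737 in the others. In the corticosterone group replicate 5 had 718 against 575 to 589.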

How the results depend on the processing

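The count of potassium channel genes with an adjusted p under 0.05 was 0 with all 8 libraries under DESeq2, its size factors, upper-quartile scaling, limma-voom, both other filters and the GC and length trend removed. It was 1 with the trend removed and without corticosterone replicate 5, and ranged from 0 to 7 when each library was left out. Members with an unadjusted p under 0.05 numbered 7 in the main test, 13 with no filter (14.4%, against 8.90% of all genes), 11 with the trend removed (13.9%, against 9.79%), and 3 to 19 when each library was left out (3.75%, against 5.05%, without corticosterone replicate 8 and 23.8%, against 29.0%, without replicate 5). Over all genes, 1 was called in the main test, 63 by DESeq2, 79 with no filter, 0 with at least 10 counts in every library (1330 at an unadjusted p under 0.05), 21 with the trend removed, 201 with the trend removed and without replicate 5, and 0 to 1651 when each library was left out (19 without vehicle replicate 1). Of the 7 members with an unadjusted p under 0.05, 6 kept their sign in all 16 settings. Of 719 recomputed values of named members, 54 had the other sign, in 21 of 45 members. Without vehicle replicate 2 the log2FC of *Kcnj13* was 2.62. For genes of few reads, such as *Kcnj14* and *Kcnh6*, counting error limits the precision. No paired analysis was possible because the groups share no replicate numbers.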
